A study of Homo sapiens with 6 samples.

Results

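The endoplasmic reticulum (ER) chaperones and the unfolded protein response were followed through 31 genes among the 57773 genes of the count table. The genes were chosen by name and not by a rule on measured values, but with earlier results of these data known. They comprise 9 soluble chaperones and co-chaperones, 2 lectin chaperones, 4 protein disulfide isomerases, 4 sensors and transcription factors, 9 genes of ER-associated degradation and 3 genes of protein entry into and exit from the ER. Each symbol matched 1 row, and 31 of the 31 passed the filter on low counts. RNA was sequenced from 6 subcutaneous tumours of PATU cells, a human line of pancreatic ductal adenocarcinoma, grown in nude mice, which lack a thymus and T cells but keep other host cells. The PATU cells carried a doxycycline-inducible short hairpin RNA (shRNA) directed at ME3, a malic enzyme of mitochondria that makes NADPH. The series concerns genomic deletion of ME2, and the labels do not give the ME2 status of PATU. In 4 tumours the hairpin was uninduced (off dox), and 2 tumours were treated with doxycycline (on dox). No control hairpin was part of the design, so doxycycline itself, hairpin induction and lower ME3 cannot be told apart. The labels name separate tumours and do not say whether the cells were 1 clone.

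The ER lumen is where secreted and membrane proteins fold. BiP, the HSPA5 product, binds unfolded chains with its J-domain partners, calnexin and calreticulin hold chains that carry N-glycans, and disulfide isomerases make and shuffle disulfide bonds. When unfolded protein accumulates, the membrane sensors IRE1, PERK and ATF6 start the unfolded protein response. IRE1 splices XBP1 mRNA, cleaved ATF6 enters the nucleus, and PERK slows translation. The spliced XBP1 factor and cleaved ATF6 then raise transcription of chaperones and of the degradation machinery. Pancreatic acinar cells are known for a very large ER, and XBP1 is needed to maintain it. These counts are per gene, so spliced and unspliced XBP1 mRNA, sensor cleavage and phosphorylation were not measured.

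ATF6 and XBP1 are known to act through short promoter elements, of which a pair was searched here. The ER stress response element, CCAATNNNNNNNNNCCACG, holds a CCAAT box for the factor NF-Y and a CCACG box for ATF6 or XBP1. The second, ERSE-II, is ATTGGNCCACG. Both strands of the RefSeq promoter windows (GRCh38.p14, 250 bases before to 50 after a start) were searched for exact matches. The matches upstream of a start are printed for the genes that hold one, a minority of the 31. Fixed letters of the element are in capitals, with 5 flanking bases on either side.
HSPA5: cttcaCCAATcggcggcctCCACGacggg
HSP90B1 distal: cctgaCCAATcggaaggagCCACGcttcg
HSP90B1 proximal: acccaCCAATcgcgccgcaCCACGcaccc
CALR: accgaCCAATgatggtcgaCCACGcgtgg
CANX: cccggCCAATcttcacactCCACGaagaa
PDIA6: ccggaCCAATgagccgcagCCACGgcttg
XBP1: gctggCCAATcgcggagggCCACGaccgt
CRELD2: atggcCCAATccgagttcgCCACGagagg
HYOU1 proximal: tactcATTGGaCCACGtccca
HYOU1 distal: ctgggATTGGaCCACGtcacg
HERPUD1: cgccgATTGGgCCACGttggg
SDF2L1: ttttgATTGGtCCACGcttcc

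The printed stretches lie on GRCh38.p14 at chr9:125241386-125241414 (minus strand) for HSPA5, chr12:103930211-103930239 (plus) and chr12:103930316-103930344 (minus) for HSP90B1, and chr19:12938379-12938407 (minus) for CALR. Those of CANX, PDIA6, XBP1 and CRELD2 lie at chr5:179698773-179698801 (plus), chr2:10812848-10812876 (minus), chr22:28800598-28800626 (minus) and chr22:49918549-49918577 (minus). The ERSE-II stretches lie at chr11:119057269-119057289 and chr11:119057375-119057395 (both plus) for HYOU1, chr16:56932020-56932040 (plus) for HERPUD1 and chr22:21642109-21642129 (minus) for SDF2L1. The HSPA5 element is 48 to 66 bases before the start and that of XBP1 34 to 52 bases before it. RefSeq windows were matched for 27 of the 31 genes, and the other 4 were DERL1, DERL3, PDIA3 and SEC24D. An ERSE was in the windows of 7 of these 27 genes, 25.9%, against 25 of all 27305 genes with a window, 0.0916%. An ERSE-II was in those of 3 of the 27, 11.1%, against 19 of all genes, 0.0696%. By window, 0.0769% and 0.0541% of all 35116 windows held them. The elements were already known from ER stress genes such as these, so their excess here is no independent result. A match describes these letters only and shows no binding.

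ME3, the gene the hairpin targets, was at 44.2, 44.1, 38.6 and 37.9 CPM (counts relative to scaled library size) in off-dox tumours 1 to 4 and at 33.3 and 28.5 CPM in on-dox tumours 1 and 2. Both on-dox values were below all off-dox values, but the difference did not pass edgeR's quasi-likelihood test (log2 fold change, here log2FC, of -0.41, SE 0.12, adjusted p = 0.148). The total count per tumour was 23855338 to 26885699. Epithelial and ductal markers, which define the carcinoma cells, had a summed level of 1391 to 1632 CPM off dox and of 1140 and 1304 CPM on dox, with all 10 markers counted. The markers did not move together: 4 of the 9 tested had a log2FC above 0, with a median of -0.10, and 0 were called. On-dox tumour 1 stood apart in 2 measures of RNA composition. The mRNAs of the mitochondrial genome took 0.529% of its counts, against 0.222% to 0.276% in the other tumours, and MALAT1 plus NEAT1, RNAs kept in the nucleus, took 4.08%, where the others had 1.48% to 2.33%.

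No gene of the 31 passed the test between on-dox and off-dox tumours. The threshold was an adjusted p of 0.05 by edgeR's quasi-likelihood test, Benjamini-Hochberg over the 21308 genes tested, which called 1.06% of all genes, 0.465% higher and 0.591% lower on dox. At an unadjusted p under 0.05 there were 3 of the 31, 9.68%, namely SEC24D, HYOU1 and DNAJC3, against 14.3% of all genes. DESeq2 called 1 of the 31, SEC24D, where it called 4.55% of the genes to which it gave an adjusted p, and limma voom called 0 of the 31 and 0.864% of all genes. Without on-dox tumour 2 edgeR called 1 of the 31, SEC61B, with 2.44% of all genes called, and without on-dox tumour 1 it called 0, with 0.318%. With no low-count filter and with a stricter one, 0 of the 31 were called, with 1.96% and 1.42% of all genes. The median log2FC of the 31 genes was 0.07, from -0.15 to 0.41, beside -0.0031 over all genes tested. Of the 31 values 20 were above 0, against 49.6% over all genes. The median was 0.16 when on-dox tumour 1 was left out and -0.0033 when on-dox tumour 2 was, so the sign of this small median rested on on-dox tumour 2.

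Most intervals around these differences were narrow in the fit of all 6 tumours. For 29 of the 31 genes, 93.5%, the 95% interval lay within a 1.5-fold change in either direction, which held for 38.5% of all genes tested and for 60.3% of genes with a mean level of at least 2 CPM. The 2 exceptions were DERL3, at about 2 CPM, and SEC24D, whose intervals reached a log2FC of 0.80 and 0.65. The comparison was not made at like abundance, and intervals are narrower at high counts. An interval within the band also did not bound the effect of 1 tumour. SEC61B, with an interval of -0.53 to 0.33, was at -0.61 with on-dox tumour 2 left out. Off dox, the coefficient of variation over the 4 tumours had a median of 6.32% for the 31 genes, from 1.49% for CANX to 15.9% for SDF2L1. The median over genes of at least 2 CPM was 9.26%. The 31 genes together took 0.583% to 0.629% of the counts off dox, and 0.629% and 0.648% on dox.

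**Figure D1:**
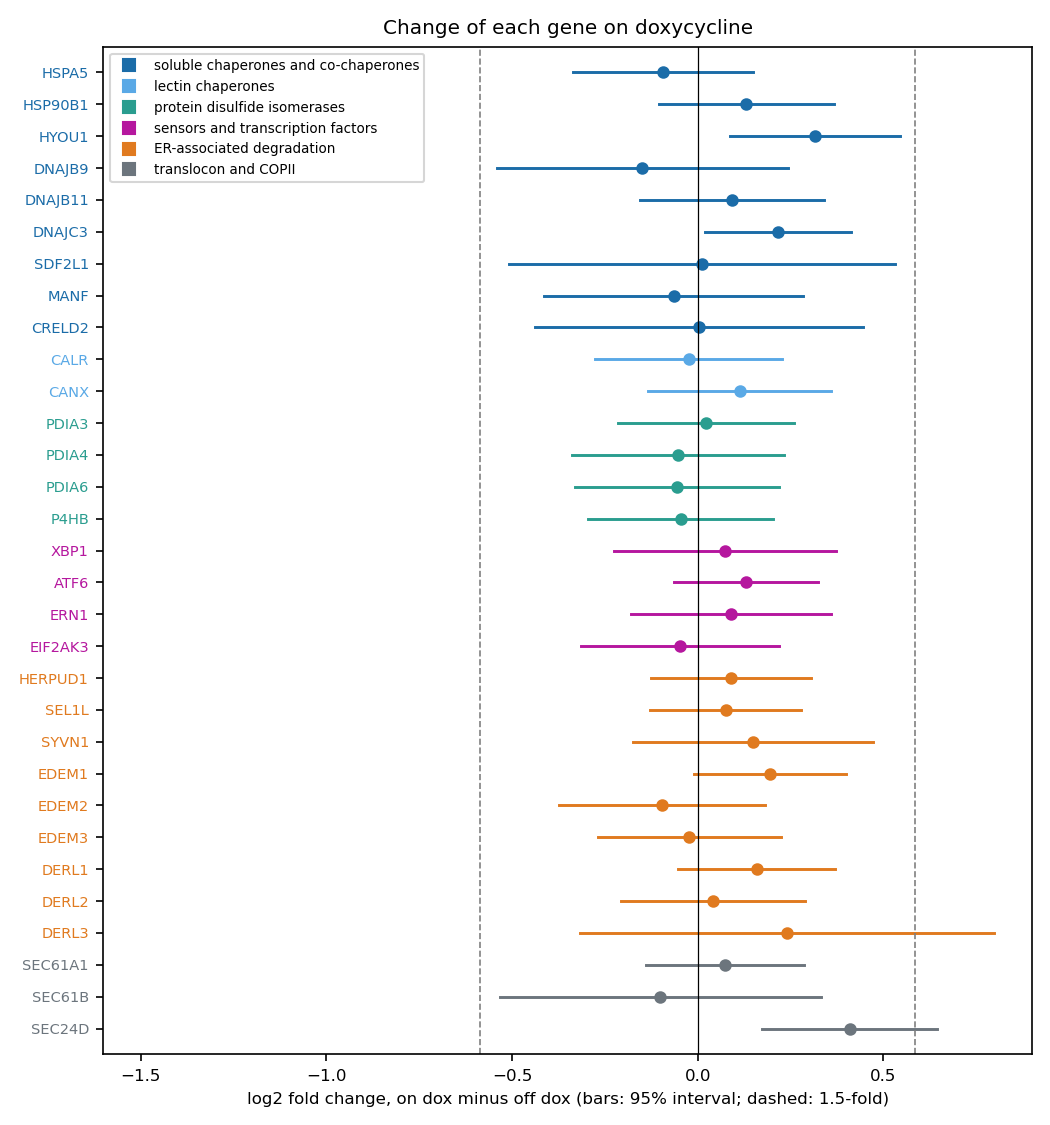
The horizontal axis gives the log2FC on dox minus off dox of the 31 genes with its 95% interval from edgeR (n = 4 and n = 2), coloured by role. Dashed lines mark a 1.5-fold change: 29 of the 31 intervals lie between them, and those of DERL3 and SEC24D cross the upper line.

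Levels can be compared between genes only per transcript length. On the scale of CPM per kilobase, off dox, CANX was highest at 343 ± 5.10 (SD, n = 4), then HSP90B1 at 289.5 ± 19.5, CALR at 229.6 ± 11.7 and HSPA5 at 153 ± 13.1. SEC61A1 came next at 147 ± 8.79 and did not differ from HSPA5 beyond their spread. The disulfide isomerases followed, with P4HB at 101 ± 8.57, PDIA4 at 78.8 ± 3.52, PDIA3 at 69.4 ± 3.74 and PDIA6 at 69.2 ± 6.20. PDIA3 and PDIA6 did not differ beyond their spread. The lowest levels were those of DERL3 at 2.24 ± 0.259 and of the sensor genes ERN1 at 2.23 ± 0.124 and EIF2AK3 at 4.50 ± 0.284, and DERL3 and ERN1 did not differ beyond their spread. The lengths are those of the annotated transcript with the longest coding sequence, and another transcript would move a gene in this order.

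Among the 9 soluble chaperones and co-chaperones none passed the test, and the on-dox tumours lay above, within or on both sides of the off-dox range, depending on the gene. HSPA5 (ENSG00000044574), BiP itself, was at 559, 672, 576 and 579.6 CPM in off-dox tumours 1 to 4 and at 542 and 577 CPM in on-dox tumours 1 and 2. On-dox tumour 1 was just below the off-dox range and on-dox tumour 2 within it (log2FC -0.09, SE 0.11, 95% interval -0.34 to 0.15, adjusted p = 0.762). HSP90B1 (ENSG00000166598), the ER paralogue of HSP90 known as GRP94, was at 852, 857, 857 and 744 CPM off dox and at 890.1 and 922 CPM on dox. Both on-dox values were above all off-dox values, with a log2FC of 0.13 (SE 0.11, adjusted p = 0.634).

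HYOU1 (ENSG00000149428), a large HSP70-like protein that exchanges nucleotide on BiP, was at 199, 233, 207 and 216 CPM off dox and at 244 and 287 CPM on dox. The groups did not overlap, with on-dox tumour 2 the higher (log2FC 0.32, SE 0.10, unadjusted p = 0.0116, adjusted p = 0.194 by edgeR). Leaving out on-dox tumour 1 gave HYOU1 a log2FC of 0.43, and leaving out on-dox tumour 2 gave 0.19. DNAJC3 (ENSG00000102580), the co-chaperone p58IPK, was at 140.5, 155, 147 and 158 CPM off dox and at 173 and 176 CPM on dox. Its on-dox values were close together and above all off-dox values (log2FC 0.22, SE 0.09, unadjusted p = 0.0342, adjusted p = 0.304 by edgeR).

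In 3 other co-chaperones and secreted ER proteins the on-dox tumours fell on opposite sides of the off-dox tumours. MANF (ENSG00000145050), an ER-resident protein that can be secreted as a trophic factor, was at 55.0, 53.3, 52.4 and 50.8 CPM off dox and at 38.8 and 62.3 CPM in on-dox tumours 1 and 2. CRELD2 (ENSG00000184164), an ER protein with disulfide isomerase activity, was at 10.04, 9.001, 10.5 and 10.3 CPM off dox and at 7.55 and 12.4 CPM in on-dox tumours 1 and 2. DNAJB11, a BiP partner also called ERdj3, was at 87.3 to 93.6 CPM off dox and at 83.9 and 110.1 CPM on dox. Their on-dox means therefore stayed near the off-dox means, with log2FC values of -0.06, 0.0029 and 0.09.

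DNAJB9 (ENSG00000128590), the BiP partner ERdj4 and a known target of spliced XBP1, was at 17.5, 13.5, 17.7 and 15.9 CPM off dox and at 12.0 and 17.2 CPM on dox (log2FC -0.15, SE 0.18, adjusted p = 0.765). On-dox tumour 1 was below all off-dox tumours and on-dox tumour 2 among them. SDF2L1, an ER protein that works with ERdj3, was low throughout, at 3.43 to 4.85 CPM off dox and at 3.91 and 4.38 CPM on dox. Its interval, from -0.51 to 0.53, was among the widest of the 31.

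The lectin chaperones and the disulfide isomerases differed more between the on-dox tumours than between the groups. CALR (ENSG00000179218), the soluble lectin calreticulin, was at 446, 457, 439 and 405 CPM off dox and at 382 and 478 CPM in on-dox tumours 1 and 2. CANX (ENSG00000127022), its membrane-bound counterpart calnexin, was at 1447, 1469, 1484 and 1436 CPM off dox and at 1460.1 and 1695 CPM on dox. On-dox tumour 1 matched the off-dox tumours for CANX and on-dox tumour 2 was above all of them. The log2FC values were -0.02 (SE 0.11, adjusted p = 0.950) for CALR and 0.11 (SE 0.11, adjusted p = 0.708) for CANX. P4HB (ENSG00000185624), the isomerase that is also the beta subunit of prolyl 4-hydroxylase, was at 278, 281, 255 and 234 CPM off dox and at 233 and 275 CPM on dox. All 4 isomerases were below their off-dox range in on-dox tumour 1, and PDIA3 and PDIA4 were above it in on-dox tumour 2. PDIA4 was at 218 to 241 CPM off dox and at 183 and 258 CPM in on-dox tumours 1 and 2. The 4 log2FC values were between -0.06 and 0.02, with adjusted p from 0.887 to 0.952.

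The mRNAs of the 3 stress sensors kept to a narrow range. ATF6 (ENSG00000118217), the membrane-tethered transcription factor, was at 95.3, 101, 95.4 and 89.8 CPM off dox and at 103 and 105 CPM on dox. Both on-dox values were just above the off-dox range (log2FC 0.13, SE 0.09, adjusted p = 0.552). ERN1 (ENSG00000178607), which encodes IRE1 alpha, was at 16.4, 18.5, 18.2 and 17.1 CPM off dox and at 18.0 and 19.4 CPM on dox. EIF2AK3 (ENSG00000172071), which encodes PERK, was at 22.1, 21.9, 19.3 and 20.3 CPM off dox and at 21.2 and 19.2 CPM on dox. Groups overlapped for ERN1 and EIF2AK3, with log2FC values of 0.09 and -0.05 (SE 0.12 for each, adjusted p = 0.797 and 0.903). XBP1 (ENSG00000100219), the transcript that IRE1 splices, was at 83.8, 85.0, 80.8 and 73.6 CPM off dox and at 69.7 and 101 CPM in on-dox tumours 1 and 2. The on-dox tumours bracketed the off-dox tumours, and the XBP1 log2FC of 0.07 (SE 0.14) became -0.22 with on-dox tumour 2 left out and 0.32 with on-dox tumour 1 left out.

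Genes of ER-associated degradation had log2FC values from -0.10 to 0.24, with adjusted p from 0.377 to 0.952. HERPUD1 (ENSG00000051108), a scaffold of the degradation complex that is strongly induced by ER stress, was at 116, 105, 96.0 and 102 CPM off dox and at 112 and 111 CPM on dox, within the off-dox range. EDEM1 (ENSG00000134109), a lectin that routes misfolded glycoproteins to degradation, was at 181, 186, 175 and 161 CPM off dox and at 205 and 197 CPM on dox. Both on-dox values were above the off-dox tumours (log2FC 0.19, SE 0.09, unadjusted p = 0.0601, adjusted p = 0.377 by edgeR). DERL3 (ENSG00000099958), a derlin of the retrotranslocation complex known from secretory cells, was at 2.19, 2.23, 2.30 and 2.78 CPM off dox and at 2.79 and 2.84 CPM on dox. Off-dox tumour 4 reached nearly the same level as both on-dox tumours, so the lack of overlap for DERL3 was by the smallest margin.

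The other degradation genes overlapped between groups. SEL1L and SYVN1, the adaptor and the ubiquitin ligase of the core complex, were highest in on-dox tumour 1, at 209.8 and 39.0 CPM, against off-dox ranges of 185 to 207 and 27.5 to 37.1 CPM. EDEM2 and EDEM3, which trim mannose from misfolded glycoproteins, had log2FC values of -0.10 and -0.02. The derlins DERL1 and DERL2 were highest in on-dox tumour 2, at 100.4 and 43.4 CPM.

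At the entry to and exit from the ER, the translocon subunits and the coat protein gave different pictures. SEC24D (ENSG00000150961), which selects cargo for the COPII vesicle coat, was at 28.6, 29.2, 25.7 and 27.4 CPM off dox and at 37.9 and 35.7 CPM on dox. This was the largest difference among the 31 genes, 1.33-fold, and the on-dox tumours were close to each other and well above all off-dox tumours. The SEC24D log2FC was 0.41 (SE 0.11, 95% interval 0.17 to 0.65), with an unadjusted p of 0.00298 and an adjusted p = 0.108 by edgeR. DESeq2 gave SEC24D an adjusted p of 0.0480. Over the fits that left out 1 tumour, its log2FC was 0.37 to 0.45. With 1 off-dox tumour left out its adjusted p was 0.170 to 0.246 by edgeR. SEC61B (ENSG00000106803), the small beta subunit of the translocon, was at 39.0, 40.5, 36.2 and 35.0 CPM off dox and at 24.8 and 45.5 CPM in on-dox tumours 1 and 2. The SEC61B log2FC of -0.10 (SE 0.20) became -0.61 with on-dox tumour 2 left out and 0.27 with on-dox tumour 1 left out. SEC61A1, the channel-forming subunit, was at 256 to 295 CPM off dox and at 279 and 299.7 CPM on dox.

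Counting over all roles, both on-dox tumours were above all off-dox tumours for 7 of the 31 genes, 22.6%, and below for 0. The same held for 11.5% and 11.5% of all genes tested, and for 13.9% and 12.6% of genes of at least 2 CPM. The 7 genes were HSP90B1, HYOU1, DNAJC3, ATF6, EDEM1, DERL3 and SEC24D. With DESeq2 size factors the count above was 6 and with upper quartile scaling 9, and the count below was 0 with each.

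**Figure D2:**
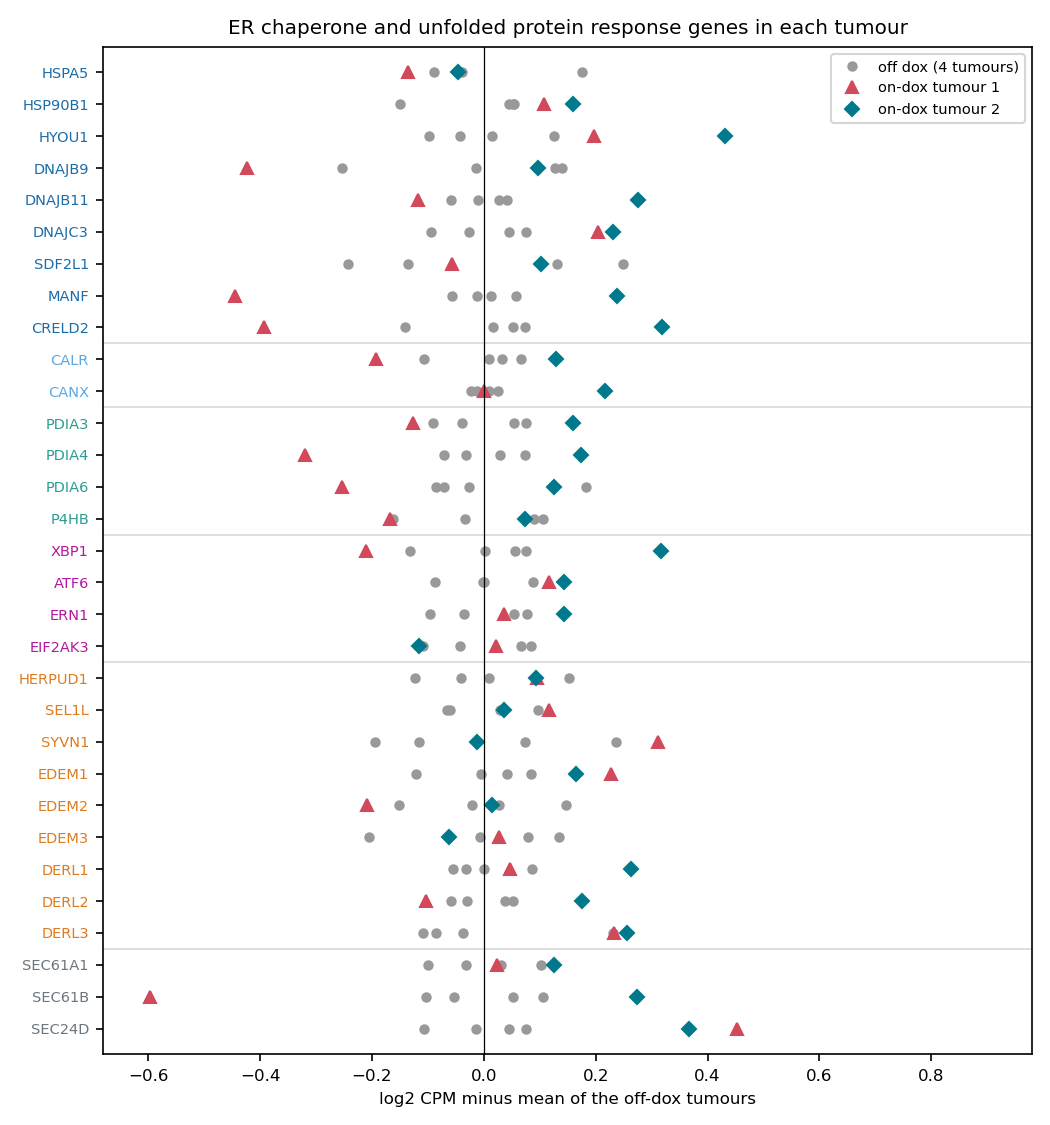
Each row is 1 gene, and the horizontal axis gives log2 CPM minus the mean of the 4 off-dox tumours, with off-dox tumours as grey circles and the on-dox tumours as a triangle and a diamond. SEC24D, HYOU1 and DNAJC3 have both on-dox tumours to the right of the circles, while SEC61B, MANF, CRELD2, XBP1 and PDIA4 have on-dox tumour 1 to the left and on-dox tumour 2 to the right.

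The 2 on-dox tumours were then set against each other, as single tumours with no test. On-dox tumour 2 was the higher for 24 of the 31 genes, 77.4%, against 48.9% of all genes tested. The median difference, on-dox tumour 2 minus 1, was 0.21 on the log2 scale, beside -0.01 over all genes tested and 0.05 over genes of at least 2 CPM. With upper quartile scaling the median of all genes moved to -0.13 and that of the 31 genes to 0.10, which kept the distance between them. On-dox tumour 2 was then the higher for 17 of the 31 genes, against 38.5% of all genes tested. The widest differences were 1.83-fold for SEC61B, 1.64-fold for CRELD2, 1.61-fold for MANF and 1.44-fold for XBP1. SYVN1 was the widest in the other direction, with a log2 difference of -0.32, higher in on-dox tumour 1.

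By role, on-dox tumour 2 was the higher for 9 of 9 soluble chaperones, 2 of 2 lectins and 4 of 4 disulfide isomerases, with median differences of 0.23, 0.27 and 0.33. It was the higher for 4 of 9 degradation genes, with a median difference of -0.0021, and for 3 of 4 sensors and transcription factors, with a median of 0.07. Under upper quartile scaling each of these medians shifts down with all genes. The differences of HSPA5 (0.09), HSP90B1 (0.05), DNAJC3 (0.03), ATF6 (0.03), ERN1 (0.11) and DERL3 (0.02) then fall below 0. The counts for soluble chaperones, sensors and degradation genes therefore hold for the main scaling (TMM) only. Those for lectins and isomerases hold under either. On-dox tumour 1 was below and on-dox tumour 2 above all off-dox tumours for 9 of the 31 genes, against 5.46% of all genes tested. These were DNAJB11, MANF, CRELD2, CALR, PDIA3, PDIA4, XBP1, DERL2 and SEC61B, and with upper quartile scaling the count was 5, against 3.21% of all genes. Taken singly, on-dox tumour 2 was above all off-dox tumours for 20 of the 31 genes and below for 1, EIF2AK3. Over all genes tested these shares were 24.7% and 26.0%. On-dox tumour 1 was above for 9 of the 31 and below for 14, where over all genes tested it was above for 30.1% and below for 29.3%.

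Transcript length moved with this difference, within the 31 genes and across the table. Spearman's rho between transcript length and the log2 difference was -0.59 over the 31 genes, and -0.43 over 11464 protein-coding genes of at least 2 CPM, both across genes of the same 2 libraries. Genes with transcripts under 1500 bases had a median difference of 0.38 and those over 4000 bases of -0.06. Among the 31 genes, the shortest transcript was that of SEC61B. Set against genes of like transcript length, in 10 groups, 21 of the 31 genes were above the median and 14 above the upper quartile, among them MANF, CRELD2, DNAJB9, PDIA3, PDIA4, PDIA6, CANX and XBP1. SYVN1 and DERL3 were below the lower quartile. On-dox tumour 1 is also the tumour with the higher shares of mitochondrial and nuclear RNA given above, and their part in these differences was not tested.

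**Figure D3:**
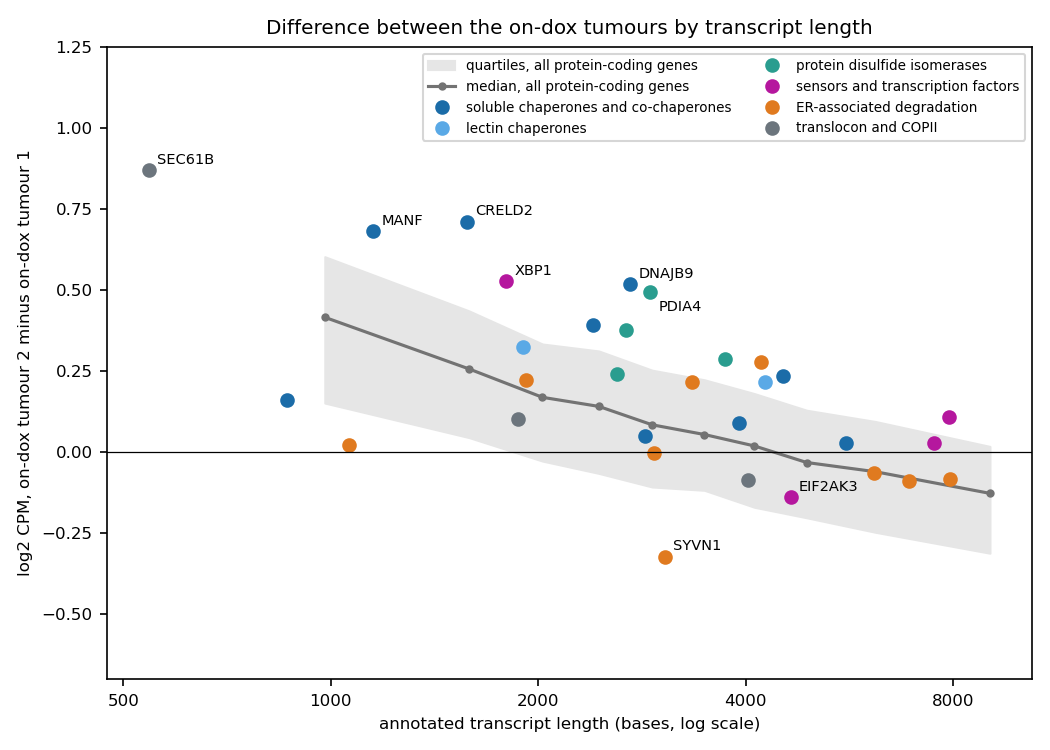
Each coloured point is 1 of the 31 genes, placed by annotated transcript length (bases, log scale) and by log2 CPM in on-dox tumour 2 minus on-dox tumour 1. The grey line and band give the median and quartiles of 11464 protein-coding genes in 10 groups by length, which slope downward, and 14 of the 31 genes lie above the band of their length group.

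Genes with and without an exact ERSE or ERSE-II match covered overlapping ranges. The 10 genes with an ERSE or ERSE-II, printed above, had log2FC values from -0.09 (HSPA5) to 0.32 (HYOU1), with a median of 0.04. The other 21, which include the 4 with no window, ranged from -0.15 to 0.41 with a median of 0.07. Between the on-dox tumours, 9 of the 10 were higher in on-dox tumour 2, HERPUD1 being level, with a median log2 difference of 0.22. The other 21 had a median of 0.11, with 15 higher in on-dox tumour 2. Both counts are for the main scaling (TMM) and fall under upper quartile scaling.

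The wider ER pathway was read from 8 further lists, 152 genes in all, each of them tested. These lists too were chosen with earlier results of these data known. Of the 152, 2 rose and 1 fell, 1.97%, beside 1.06% of all genes. FKBP10, an ER peptidyl-prolyl isomerase that folds collagen, was at 10.3, 9.81, 12.6 and 11.8 CPM off dox and at 18.9 and 18.4 CPM on dox. FKBP10 rose 1.68-fold (log2FC 0.75, SE 0.14, adjusted p = 0.0425 by edgeR). The FKBP10 call was lost when any 1 off-dox tumour was left out (adjusted p from 0.0635 to 0.123 by edgeR). Leaving out on-dox tumour 1 or 2 gave FKBP10 a log2FC of 0.73 and 0.76. Fibroblast markers, which come with collagen, had a summed level of 247 to 1000.03 CPM off dox and of 215 and 446 CPM on dox, and 0 of the 13 tested were called. None of the 14 fibroblast markers was at 0 in all tumours, and their part in the FKBP10 result was not tested.

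MAP3K5, the kinase ASK1 that IRE1 recruits through TRAF2, was at 8.96, 7.70, 10.1 and 8.13 CPM off dox and at 19.5 and 17.1 CPM on dox. MAP3K5 rose 2.10-fold (log2FC 1.07, SE 0.15, adjusted p = 0.0136 by edgeR), the largest rise in these lists. Leaving out on-dox tumour 1 or 2 gave MAP3K5 a log2FC of 0.97 and 1.16. Among the other 16 transducers, CREB3L2, an ATF6-like factor, had a log2FC of 0.52 (adjusted p = 0.155), chosen after its value was seen.

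In the PERK and ATF4 arm, DDIT4, an inhibitor of mTORC1 that stress induces, was at 54.5, 47.9, 58.4 and 45.2 CPM off dox and at 30.2 and 33.7 CPM on dox. DDIT4 fell, with a log2FC of -0.69 (SE 0.13, adjusted p = 0.0377 by edgeR). The DDIT4 call was lost without off-dox tumour 1, 2 or 3 (adjusted p = 0.0896, 0.0789 and 0.0866 by edgeR). Over the fits that left out 1 tumour its log2FC was -0.77 to -0.61. The list had a median log2FC of -0.27 and 7 of its 18 genes above 0. Both on-dox tumours were below all off-dox tumours for 5 of the 18 and above for 3, where 11.5% of all genes tested lay on either side. ATF4, the factor whose translation PERK favours, had a log2FC of -0.23 (adjusted p = 0.473), and DDIT3, the death-associated factor CHOP, one of -0.34 (adjusted p = 0.646). CHAC1 and TRIB3, which ATF4 and CHOP induce, were at -0.35 (adjusted p = 0.722) and -0.45 (adjusted p = 0.269). With on-dox tumour 2 left out ATF4 was at -0.49, and with on-dox tumour 1 left out it was at -0.0030. The same pair of fits gave -0.64 and -0.086 for DDIT3, -0.96 and 0.077 for CHAC1, and -0.67 and -0.26 for TRIB3, so the sign of CHAC1 turned. DDIT3 was at -0.090 with off-dox tumour 1 left out. These 4 were named as the arm's best-known genes after their values were seen, and all 4 lay below 0. Other genes of the list were mixed over the fits that left out 1 tumour. EIF2S1, NUPR1, PPP1R15B and TNFRSF10B stayed above 0, and PPP1R15A, SESN2, CEBPB, VLDLR and HMOX1 stayed below. ASNS (-0.14 to 0.060), SLC7A11 (-0.090 to 0.13), ATF3 (-0.13 to 0.13) and CEBPG (-0.12 to 0.25) took both signs.

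In the other 5 lists edgeR called no gene, and limma voom called the same 3 of the 152 genes as edgeR. At an unadjusted p under 0.05 by edgeR stood 14.3% of all genes tested. In these 5 lists it was 4 of 14 isomerases and oxidases, 4 of 15 glycosylation, 5 of 22 degradation, 4 of 22 translocon and 5 of 21 COPII genes. In the lists with a call it was 4 of 23 folding factors, 2 of 17 transducers and 8 of 18 genes of the PERK and ATF4 arm. DESeq2 called 8 of the 152, where it called 4.55% of all genes to which it gave an adjusted p. Besides FKBP10, MAP3K5 and DDIT4, the 8 were ERLEC1, SSR3, SERPINH1, HMOX1 and CEBPB. The COPII and cargo list had a median log2FC of 0.14, with 16 of 21 genes above 0, beside 49.6% of all genes. For 7 of the 21 both on-dox tumours were above all off-dox tumours, beside 11.5% of all genes. In the isomerase, glycosylation, degradation and translocon lists this count was 5 of 14, 3 of 15, 6 of 22 and 2 of 22. Within the COPII list SEC23IP, SEC24A and KDELR2 had log2FC values of 0.34, 0.32 and 0.26 (adjusted p = 0.103, 0.156 and 0.195 by edgeR). KDELR2 is a receptor that returns chaperones from the Golgi. The list of other degradation genes had a median of 0.01, with ERLEC1, a lectin of the SEL1L complex, at 0.40 (adjusted p = 0.0794 by edgeR and 0.0281 by DESeq2), NGLY1 at -0.39 (adjusted p = 0.168) and MARCH6 at 0.35 (adjusted p = 0.262). The translocon list had a median of -0.03, with SSR3 at -0.50 (adjusted p = 0.0958 by edgeR, 0.00676 by DESeq2 and 0.0129 by edgeR with no low-count filter), SEC63 at 0.45 (adjusted p = 0.147, or 0.0470 when no low-count filter was used) and SRPR at 0.34 (adjusted p = 0.2197). With on-dox tumour 2 left out SEC63 was at 0.66, and with on-dox tumour 1 left out it was at 0.19. Without on-dox tumour 2, SSR3 was at -0.66 and MARCH6 at 0.57. With on-dox tumour 1 left out instead, SSR3 and MARCH6 were at -0.37 and 0.085.

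Other disulfide isomerases had a median log2FC of 0.04, with PDIA5 at 0.39 (adjusted p = 0.154), TMX4 at -0.26 (adjusted p = 0.221) and TMX3 at 0.26 (adjusted p = 0.308). The glycosylation list had a median of -0.04, with GANAB, the glucosidase II catalytic subunit, at 0.34 (adjusted p = 0.188), RPN2 at 0.33 (adjusted p = 0.222) and OST4 at -0.32 (adjusted p = 0.322). Leaving out on-dox tumour 1 or 2 gave 0.41 and 0.085 for TMX3, 0.49 and 0.14 for RPN2, and -0.13 and -0.54 for OST4. The list of other folding factors had a median of 0.03. Across the 8 lists the median difference of on-dox tumour 2 minus 1 was highest in the folding factors, 0.27, and the translocon genes, 0.25, and lowest in the transducers, -0.03.

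**Figure D4:**
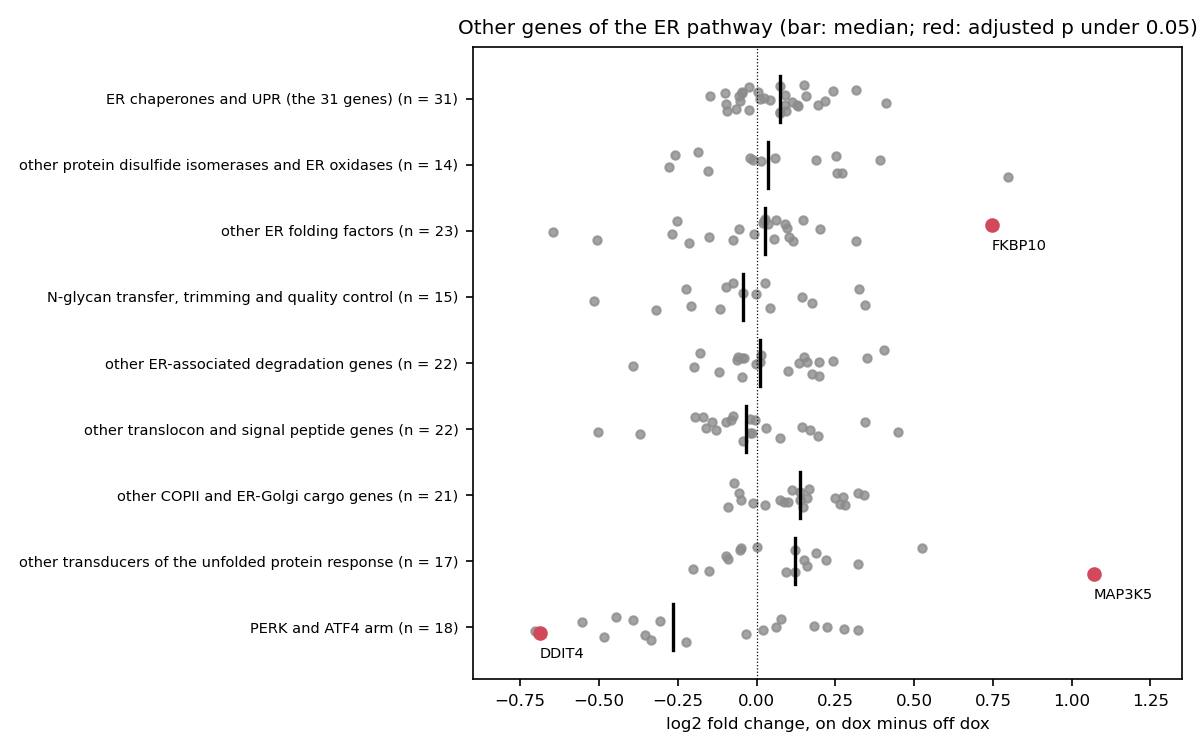
The horizontal axis gives the log2FC on dox minus off dox, with 1 point per gene and a bar at the median of each list, the 31 genes in the top row. Called genes are red: FKBP10 and MAP3K5 to the right and DDIT4 to the left.

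Markers of other cell types were looked at because host cells can carry a large ER. Of 12 plasma and B cell markers 5 were tested and 0 called, and their summed level was 14.3 to 19.4 CPM off dox and 11.3 and 18.8 CPM on dox, with none at 0 in all tumours. Myeloid markers summed to 23.6 to 46.7 CPM off dox and to 35.8 and 46.5 CPM on dox, with TYROBP at 0 in all 6 tumours. Endothelial markers summed to 14.3 to 24.9 CPM off dox and to 32.7 and 23.7 CPM on dox. Skeletal muscle markers summed to 2180 CPM in off-dox tumour 4 and to 161 to 380.1 CPM in the other tumours. Their part in the values of the 31 genes was not tested, and in bulk tumours fewer cells of a type and less RNA per cell cannot be told apart.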

How the data were processed

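The authors deposited whole-number counts per gene for 6 tumours, 1 column each. The submitters' processing notes name STAR, HTSeq, limma and hg19. Their versions, the annotation and the strand setting, and how mouse reads were treated, are not stated there. Mouse reads may therefore be among the counts, and antisense overlaps cannot be told apart. Of 57798 lines, 25 with a repeated identifier were removed; 19194 of 24323 missing symbols and 27 symbols turned into dates were restored by identifier.

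The test of the counts was that of edgeR 4.0.16 under R 4.3.3 (TMM scaling, default filterByExpr, quasi-likelihood F test, Benjamini-Hochberg over 21308 genes, threshold 0.05). The SE is the log2 fold change divided by the square root of F. CPM were computed on TMM-scaled library sizes, with SDs over the tumours of a group. Log2 differences between single tumours use CPM plus 0.04. A test of 4 against 2 tumours by permutation cannot give an exact p under 0.0667, so none was run. Lengths come from GENCODE, for lengths and names only. All p-values rest on the spread among tumours grown from 1 cell line.

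The 31 genes and the further lists were chosen with earlier results of these data known. Values per tumour are given for 12 genes always, for those with an unadjusted p under 0.05 or groups that did not overlap, and for the 4 with the widest difference between on-dox tumours; of a further list, called genes or else the 3 of smallest p. Alternatives were DESeq2 1.42.0, limma voom 3.58.1, other scalings and filters, a replicate block, a threshold of 0.1 and leaving out each tumour.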

Additional observations from a re-analysis of the deposited data

Results flagged for a closer look

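In 2 of 50 genes examined, 1 off-dox tumour lay far from the other off-dox tumours by Dixon's criterion, which chance alone meets in about 1 in 20 groups. HSP90B1 was lowest in off-dox tumour 4, at 744 CPM, and the other off-dox tumours lay between 852 and 857 CPM. TMX4, a membrane-bound disulfide isomerase outside the 31 genes, was highest in off-dox tumour 1, at 83.2 CPM, with the others between 76.1 and 77.3 CPM.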

How the results depend on the processing

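Over all genes 99 were called higher and 126 lower on dox. These counts were 310 and 460 with no low-count filter, 311 and 413 with DESeq2, and 244 and 289 at a threshold of 0.1. Together they were 1.06% of genes in the main fit, 1.96% with no filter and 4.55% with DESeq2. The fits that left out 1 tumour gave 39 to 231 higher and 33 to 331 lower. Of the 31 genes 0 were called by edgeR, 1 by DESeq2 and 0 with an off-dox tumour left out. Of the 152 further genes 3 were called, 9 with no filter, 8 with DESeq2, 7 at a threshold of 0.1 and 1 to 2 with an off-dox tumour left out.

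With the replicate block the counts over all genes were 23 and 30, those of the 31 and the 152 genes 0 and 0, and the median of the 31 genes was 0.013. The deviations of same-numbered tumours had correlations of -0.17 and -0.06. With so few on-dox tumours, these correlations cannot decide whether the numbers pair tumours. In the block fit off-dox tumours 3 and 4 have no on-dox partner, so the difference rests on tumours 1 and 2 and little spread is left to test it. The calls of FKBP10 (0.89), MAP3K5 (1.14) and DDIT4 (-0.68) were lost with the replicate block, with adjusted p = 0.194, 0.1004 and 0.269 by edgeR. With so few tumours informing that fit, the loss cannot decide whether these calls hold.

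With a tumour left out, the median log2 fold change ranged from -0.0033 to 0.16 for the 31 genes and from -0.11 to 0.11 for the 152 genes. With upper quartile scaling the median difference between on-dox tumours was 0.10 in place of 0.21. Signs changed for SDF2L1 (-0.17), XBP1 (-0.012) and EDEM3 (0.018) with the replicate block, where off-dox tumours 3 and 4 do not inform the difference. CRELD2, at 0.0029 in the main fit, changed sign with no filter, the stricter filter and limma voom (-0.0032, -0.0044 and -0.044). The causes of the CRELD2 changes were not tested.

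With 1 tumour left out, the sign of the log2 fold change changed for 18 of the 31 genes, none of them called in the main fit. Ranges were -0.44 to 0.090 (DNAJB9), -0.12 to 0.28 (DNAJB11), -0.076 to 0.10 (SDF2L1), -0.45 to 0.24 (MANF), -0.40 to 0.32 (CRELD2), -0.20 to 0.13 (CALR), -0.0033 to 0.22 (CANX), -0.13 to 0.16 (PDIA3), -0.33 to 0.17 (PDIA4) and -0.26 to 0.12 (PDIA6). They were -0.18 to 0.072 (P4HB), -0.22 to 0.32 (XBP1), -0.12 to 0.016 (EIF2AK3), -0.019 to 0.30 (SYVN1), -0.22 to 0.012 (EDEM2), -0.084 to 0.017 (EDEM3), -0.11 to 0.18 (DERL2) and -0.61 to 0.27 (SEC61B). With these depths, DERL3 and SDF2L1, at 55 to 126 counts, have the widest intervals.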
